A study of Mus musculus with 16 samples.

Results

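The 10 genes studied here mark the precursors of oligodendrocytes or set their fate, and they were measured in the cerebellum of wild-type and *Atm-/-* mice with and without nicotinamide riboside (NR), a precursor of NAD+. The genes are *Pdgfra*, *Cspg4*, *Gpr17*, *Olig1*, *Olig2*, *Sox10*, *Sox8*, *Nkx2-2*, *Tcf7l2* and *Myrf*, and their probes were found through the accession each probe was designed on. They account for 15 of the 56605 probes on the array and for 10 genes, of which 9, with 14 probes, were bright enough to be tested beside the 16737 named genes measured in all. *Myrf* was the exception. The *Atm-/-* mice are homozygous for the targeted allele Atmtm1Bal on a mixed B6;129S4 background. It is a loss in all cells of *Atm*, the DNA damage kinase gene mutated in ataxia telangiectasia, and the wild-type (WT) mice were littermates. Mice drank water with 3.5 mg/ml NR (12 mM) from 6 weeks of age for 2 months, controls drank water alone (veh), and RNA was taken from cerebellar cortex at 3.5 months. The labels give all mice as male. With 2 genotypes and 2 treatments there are 4 groups (WT veh, *Atm-/-* veh, WT NR, *Atm-/-* NR) of 4 arrays, 1 mouse on each.

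Oligodendrocytes are the myelin-forming glia of the central nervous system. They descend from precursor cells that keep dividing in the adult brain and carry the PDGF receptor alpha and the proteoglycan NG2 on their surface. A precursor that leaves the cell cycle passes through a short committed stage, marked by the receptor GPR17, before it switches on the genes of myelin. The basic helix-loop-helix factors OLIG1 and OLIG2 and the HMG-box factors SOX10 and SOX8 act throughout the lineage, NKX2-2 and TCF7L2 act around the onset of differentiation, and MYRF drives the myelin genes themselves. In the cerebellum most of these cells lie in the white matter and fewer in the cortex. RNA of whole tissue was measured, so fewer cells of a type and less RNA per cell cannot be told apart in any value given here.

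The arrays were checked before the genes were compared. The scanner software placed 34945 to 42559 probes per array well above background, with every *Atm-/-* NR array (34945 to 37817) below every *Atm-/-* veh array (39134 to 41905). All WT arrays were on 1 slide and all *Atm-/-* arrays on the other, which means that slide and genotype cannot be told apart, and on both slides the veh arrays filled one row and the NR arrays the other, so treatment and row cannot be told apart. The *Atm* probe A_66_P114939 was lower on all *Atm-/-* veh arrays (7.91 to 8.08, log2 signal) than on all WT veh arrays (8.63 to 9.03), and the difference passed the test (limma, log2 difference -0.87, adjusted p = 0.000317). The NR groups gave -0.76 (adjusted p = 0.00135) with this probe. The brighter *Atm* probe, A_52_P400509, gave -0.35 for the veh groups, which did not overlap (adjusted p = 0.221), and -0.12 for the NR groups, which did (adjusted p = 0.99975, limma). The place of either probe relative to the targeted part of the gene was not tested. On 4 arrays labelled male (*Atm-/-* NR 4, *Atm-/-* veh 3, WT NR 1 and WT NR 4) no probe of *Uty*, *Eif2s3y* or *Kdm5d*, which are Y-linked, was well above background, and *Xist*, which is expressed from the inactive X chromosome of females, was, while on the other 12 arrays all 3 had a probe well above background and *Xist* was not. A further Y-linked gene, *Ddx3y*, was well above background on those 12 and on WT NR 1. These 4 arrays go against the label of sex and are called arrays lacking Y-linked signal. All 6 Purkinje cell markers and all 6 granule cell markers were among the genes kept. However, 5 arrays also carried strong signal of genes known from other brain regions, which were picked after their values had been seen. On WT NR 2, WT NR 3, *Atm-/-* NR 2 and *Atm-/-* NR 3, 13 genes known from midbrain and thalamus stood on average 1.77 to 2.00 log2 units above their mean over all arrays. On WT veh 4, 9 genes known from forebrain stood 3.42 units above theirs. On the 4 NR arrays these forebrain genes stood 0.95 to 1.52 units above their mean, and on the 11 other arrays they stood at -1.06 to -0.34. These 5 arrays are called set apart here, and the main results are also given without them. Their removal leaves 4 arrays of *Atm-/-* veh, 3 of WT veh and 2 of each NR group.

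No member passed the test in any comparison. Differences were fitted over all 37253 probes kept, with limma's moderated test and a Benjamini-Hochberg adjusted p under 0.05, and 0 of 9 members were called in each of 8 tests. Of all probes, 0.0537% were called for *Atm-/-* veh against WT veh, 9.04% for *Atm-/-* NR against *Atm-/-* veh, 0% for WT NR against WT veh and 0.0537% for *Atm-/-* NR against WT NR. The difference of the NR effects between genotypes called 0% of probes, NR against veh over both genotypes 10.8%, *Atm-/-* against WT over both treatments 0.201% and a test of any difference among the groups 4.84%. Of all genes by brightest probe, 11.5% were called for *Atm-/-* NR against *Atm-/-* veh, 13.4% for NR over both genotypes and 6.14% for any difference. At an unadjusted p under 0.05, 2 members passed for *Atm-/-* veh against WT veh (16.8% of all genes), 1 for *Atm-/-* NR against *Atm-/-* veh (30.5%), 0 for WT NR against WT veh (8.84%) and 2 for *Atm-/-* NR against WT NR (4.34%). By the same rule 0 members passed for the difference of the NR effects (5.96%), 2 for NR over both genotypes (31%), 4 for *Atm-/-* over both treatments (13.1%) and 2 for any difference (27%). With the deposited z-scores, the methods' t-test, adjusted in the same way, called 0, 1, 0 and 0 members in the first 4 comparisons, and 2, 3041, 0 and 10 of all 37253 probes. The member it called was *Gpr17*. Without the 5 arrays set apart, 0 members were called by limma in each of the 8 tests, with at most 0.0429% of all probes called.

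*Tcf7l2*, which encodes a transcription factor at the end of the Wnt pathway, differed more between arrays of 1 group than any other member. Besides newly differentiating oligodendrocytes it is known from neurons of the thalamus and midbrain. Its brightest probe, A_52_P566741, read 10.02, 9.95, 10.12 and 9.93 on WT veh arrays 1 to 4 (log2 signal). It read 9.95, 13.73, 13.73 and 10.02 on the WT NR arrays. The *Atm-/-* veh arrays gave 9.57, 9.91, 9.79 and 9.75, and the *Atm-/-* NR arrays gave 10.003, 13.51, 13.80 and 9.98. Arrays 2 and 3 of both NR groups were thus far above the other 12 arrays, which all lay between 9.57 and 10.12. Of the 3 other probes, A_55_P2030160 read 9.92 to 10.23 on these 4 arrays and 5.51 to 6.45 on the others. Probe A_52_P146043 read 8.05 to 8.35 against 4.81 to 5.64. The probe A_55_P2143724 showed the same order over a narrow range, 8.08 to 8.39 against 7.60 to 8.01. The high signal was therefore seen by all 4 probes, although to different extents.

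The same 4 NR arrays were set apart by genes of midbrain and thalamus. *Lhx9*, a LIM-homeobox gene, read 10.69 to 11.06 on them and 4.12 to 7.31 on the 11 arrays not set apart. *Six3*, another homeobox gene, read 9.14 to 9.71 against 3.29 to 6.09, and *Tal1*, which acts in midbrain inhibitory neurons, read 9.25 to 9.48 against 6.71 to 7.29. Not every gene of the list separated these arrays. *Gata2* read 9.19 to 9.32 against 8.62 to 9.70, *Sox14* 4.97 to 5.95 against 2.31 to 7.67, and *Ntng1* 11.67 to 12.01 against 10.80 to 11.76. On WT veh 4, where *Tcf7l2* was at the level of the other arrays, the dendritic gene *Ddn* read 14.76, while it was 8.47 to 10.32 on the 4 NR arrays and at most 6.42 on the 11 arrays. Other forebrain genes were not high on the 4 NR arrays. There *Tbr1* read 6.77 to 7.35 against 6.79 to 8.67 on the 11 arrays, and *Ppp1r1b* 14.40 to 14.69 against 14.53 to 15.35. Over all 16 arrays, *Foxp2* (r = 0.96), *Zfhx3* (r = 0.96), *Mcub* (r = 0.95) and *Sema3f* (r = 0.95) followed *Tcf7l2* most closely. These are Pearson's r of the log2 signal, with group means not removed. *Foxp2* and *Zfhx3* belong to the list of midbrain and thalamus genes, which was picked after values had been seen, so their place in it tests nothing. The part of tissue from other regions in the *Tcf7l2* signal was not tested.

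**Figure D1:**
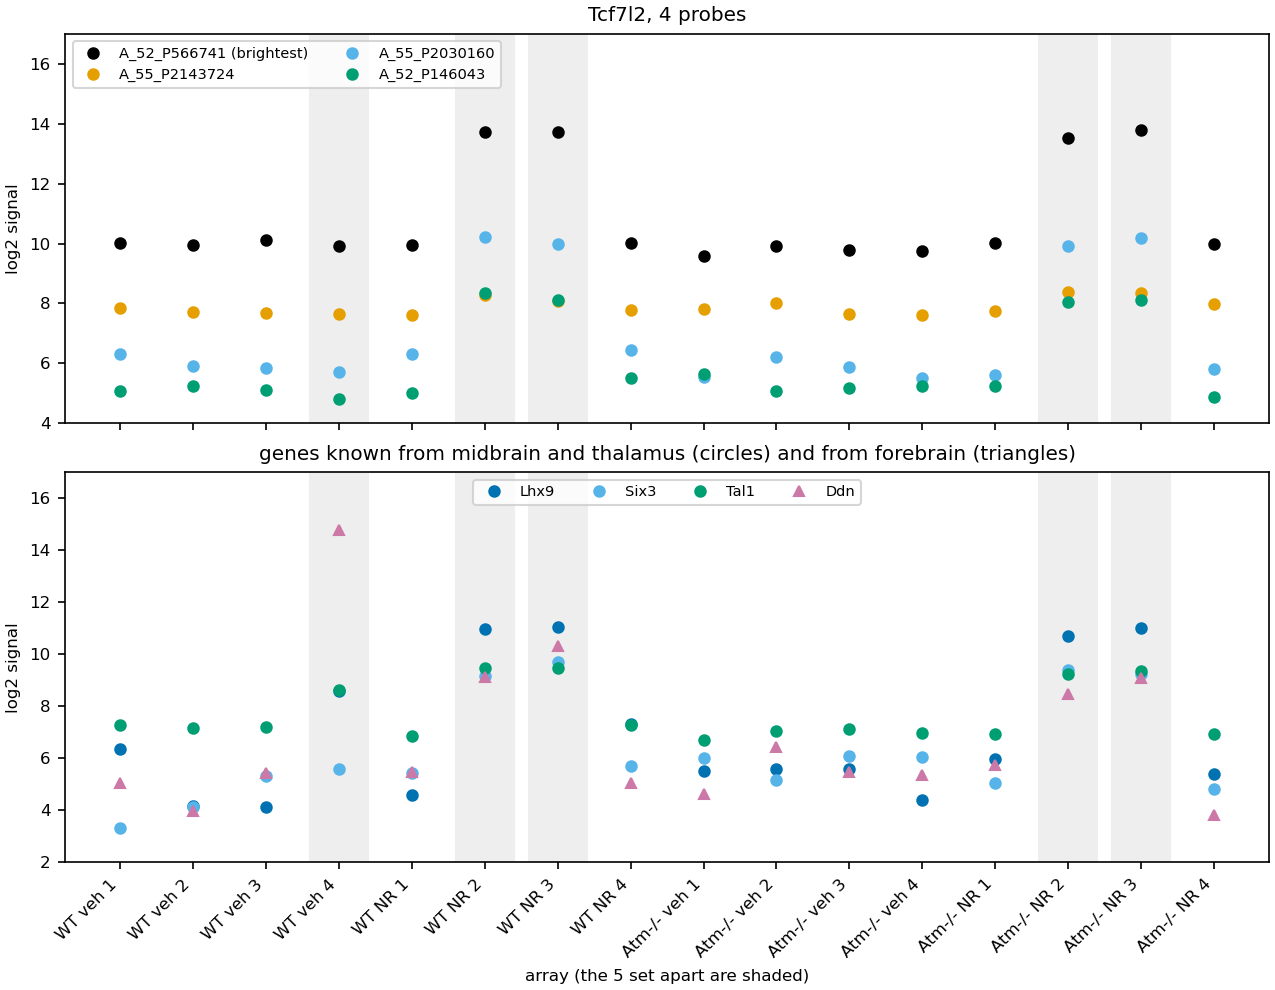
The log2 signal of the 4 *Tcf7l2* probes (top) and of 4 genes known from midbrain and thalamus (*Lhx9*, *Six3*, *Tal1*) or forebrain (*Ddn*) (bottom) is plotted for each of the 16 arrays, with the 5 arrays set apart shaded. The *Tcf7l2* probes are high on NR arrays 2 and 3 of both genotypes, together with *Lhx9*, *Six3* and *Tal1*, and *Ddn* is highest on WT veh 4.

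The *Tcf7l2* comparisons changed when these arrays were left out. With all arrays, the log2 difference was 2.07 (SE 0.99, limma adjusted p = 0.197) for *Atm-/-* NR against *Atm-/-* veh and 1.85 (SE 0.99, adjusted p = 0.716) for WT NR against WT veh. When the 5 arrays were left out it was 0.24 (SE 0.10, adjusted p = 0.263) and -0.04 (SE 0.11, adjusted p = 0.957). A smaller difference was seen with and without them. Every *Atm-/-* veh array (9.57 to 9.91) read below every WT veh array (9.93 to 10.12). That log2 difference was -0.25 with all arrays (SE 0.99, adjusted p = 0.927) and -0.27 without the 5 (SE 0.092, adjusted p = 0.269, limma), and neither passed. The other 3 probes of *Tcf7l2* overlapped between these groups, and for 2 of them the mean was higher in *Atm-/-* veh.

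*Gpr17* came nearest to a call. It encodes a G protein-coupled receptor that appears in committed precursors and is lost as they mature. It read 11.98, 11.42, 11.42 and 13.07 on the WT veh arrays, and 12.10, 12.43, 12.05 and 12.43 on the WT NR arrays (log2 signal, arrays 1 to 4). In *Atm-/-* veh it read 10.99, 11.06, 10.70 and 11.13, and in *Atm-/-* NR 11.76, 12.10, 12.04 and 11.71. All 4 *Atm-/-* veh arrays were therefore below all 12 other arrays, and *Atm-/-* NR arrays lay within the range of the WT groups. In *Atm-/-* veh the level was 0.501 of that in WT veh (95% interval 0.329 to 0.761, log2 difference -0.998, SE 0.28). This difference had an adjusted p of 0.198 (limma). In *Atm-/-* NR it was 1.91 times that in *Atm-/-* veh (95% interval 1.25 to 2.90, log2 difference 0.93, SE 0.28), with an adjusted p of 0.0544. NR in WT mice gave a log2 difference of 0.28 (SE 0.28, adjusted p = 0.870), and the difference between both NR effects was 0.65 (95% interval -0.21 to 1.50, adjusted p = 0.839), so the NR effects were not shown to differ between genotypes.

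The array WT veh 4 had the highest *Gpr17* value of all 16. Without the 5 arrays set apart, *Gpr17* read 11.42 to 11.98 in WT veh, 12.10 to 12.43 in WT NR, 10.70 to 11.13 in *Atm-/-* veh and 11.71 to 11.76 in *Atm-/-* NR. Both WT NR arrays then lay above all WT veh arrays. The log2 difference was -0.63 for *Atm-/-* veh against WT veh (SE 0.17, adjusted p = 0.240) and 0.76 for *Atm-/-* NR against *Atm-/-* veh (SE 0.19, adjusted p = 0.113, limma). For WT NR against WT veh it was 0.66 (SE 0.20, adjusted p = 0.491), and the difference between both NR effects was 0.10 (adjusted p = 0.919). Leaving out WT veh 4 alone kept the log2 difference of *Gpr17* between *Atm-/-* NR and *Atm-/-* veh at 0.93 and gave an adjusted p of 0.00636, and leaving out WT veh 2 or WT veh 3 alone gave 0.0496 and 0.0466 (limma), within a range of 0.00636 to 0.177 over 27 settings on the log2 scale. Without the 4 arrays lacking Y-linked signal the log2 difference was 0.90 (adjusted p = 0.177). The lower number of probes above background on the *Atm-/-* NR arrays moves with this comparison, and its part was not tested.

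**Figure D2:**
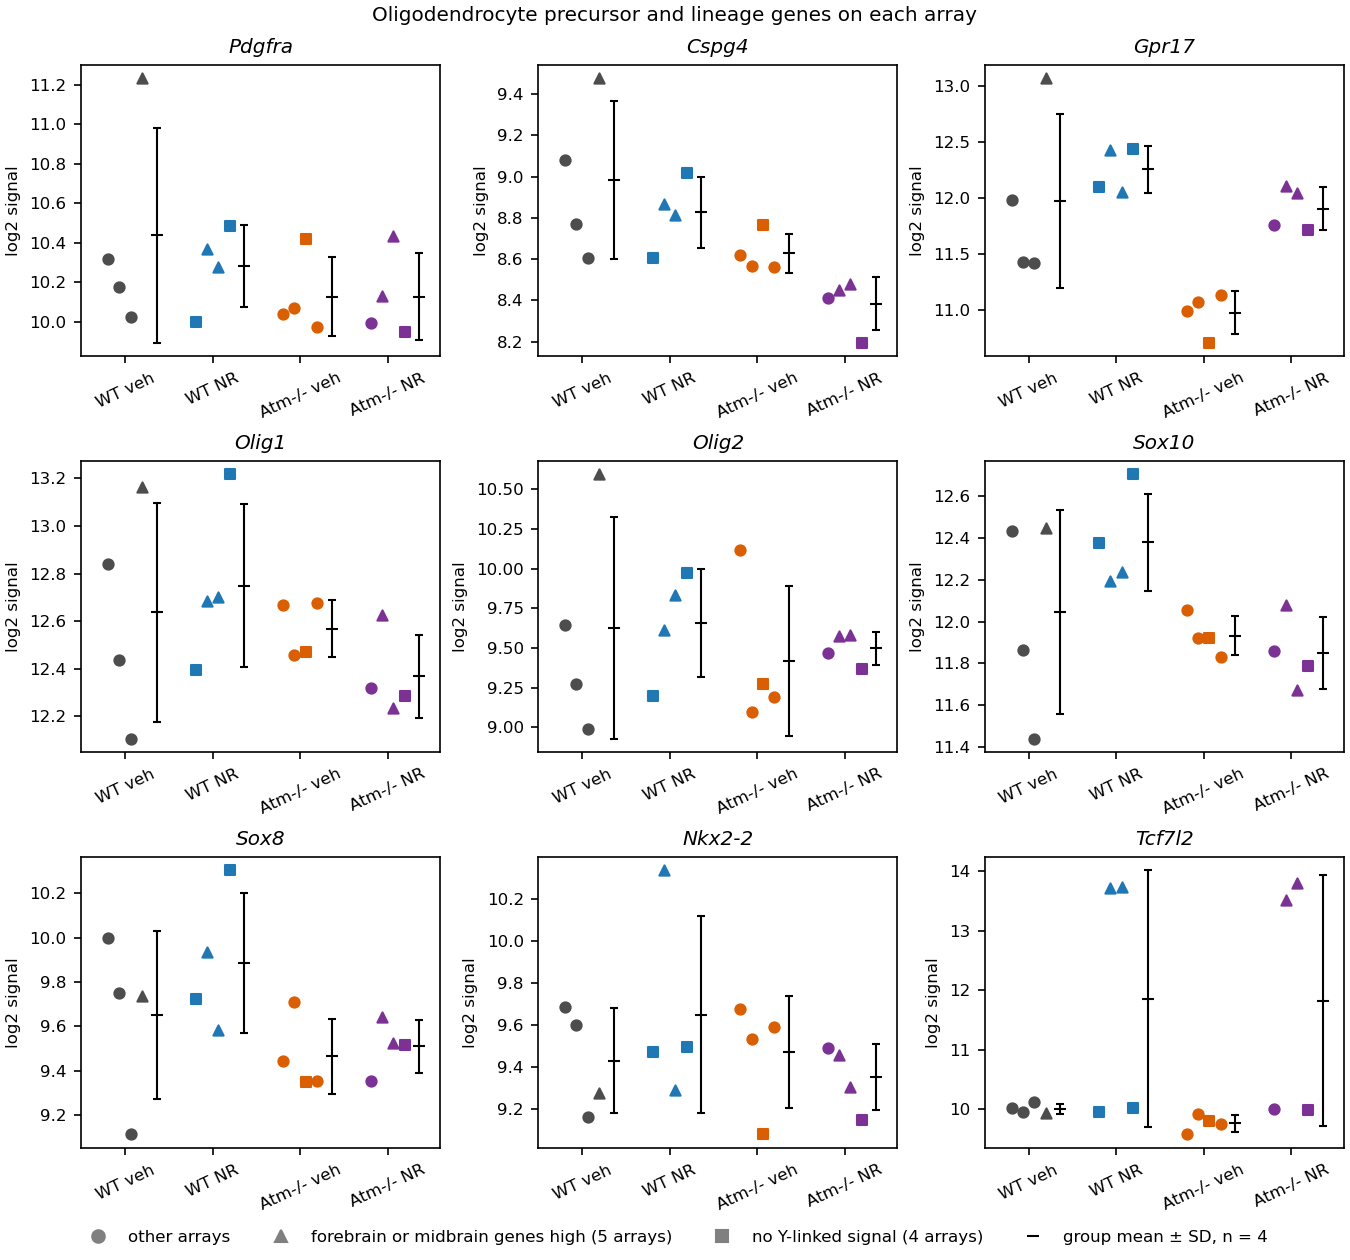
Each panel plots the log2 signal (y axis) of the brightest probe of 1 of the 9 measured members on each array of the 4 groups, with the mean ± SD of the group (n = 4) beside it, triangles for the 5 arrays set apart and squares for the 4 arrays without Y-linked signal. *Gpr17* is lowest on the 4 *Atm-/-* veh arrays (10.70 to 11.13), and *Tcf7l2* is high on 4 NR arrays.

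*Pdgfra*, the receptor through which PDGF keeps precursors dividing, showed no group difference beyond the spread. It read 10.32, 10.18, 10.03 and 11.23 on the WT veh arrays, where array 4 stood above the rest. The WT NR arrays gave 9.9998, 10.37, 10.28 and 10.49, the *Atm-/-* veh arrays 10.04, 10.07, 10.42 and 9.98, and the *Atm-/-* NR arrays 9.99, 10.13, 10.44 and 9.95. The groups overlapped in every comparison. The log2 difference of *Atm-/-* veh from WT veh was -0.31 (95% interval -0.78 to 0.16, limma adjusted p = 0.532) and without the 5 arrays set apart -0.05, and that of *Atm-/-* NR from *Atm-/-* veh was 0.00042 (95% interval -0.47 to 0.47, adjusted p = 0.999).

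*Cspg4*, which encodes NG2, stood lowest in *Atm-/-* NR. It read 9.08, 8.77, 8.61 and 9.48 in WT veh and 8.61, 8.87, 8.81 and 9.02 in WT NR. In *Atm-/-* veh it read 8.62, 8.57, 8.76 and 8.56, and in *Atm-/-* NR 8.41, 8.45, 8.48 and 8.20. Every *Atm-/-* NR array was below every array of the other 3 groups. Over both treatments the log2 difference of *Atm-/-* from WT was -0.40 (SE 0.11, 95% interval -0.63 to -0.16, adjusted p = 0.172, limma). With the 5 arrays set apart left out it was -0.35 (SE 0.12, adjusted p = 0.422). For *Atm-/-* NR against *Atm-/-* veh the log2 difference of *Cspg4* was -0.24 (SE 0.15, adjusted p = 0.328), and -0.32 on the 11 arrays not set apart (SE 0.16, adjusted p = 0.309). *Cspg4* lies on chromosome 9 within 20 Mb of *Atm*. Of the 367 measured genes in that stretch, 26 were called for *Atm-/-* against WT over both treatments, and 11 of 16370 elsewhere were. The stretch around a targeted gene can keep the genome of the stem cell strain, and its part in the *Cspg4* difference cannot be told apart from that of *Atm*.

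*Pdgfra* and *Cspg4* are also expressed by fibroblasts and pericytes of the vessel wall. Of 7 fibroblast markers measured, 6 were lower in *Atm-/-* veh than in WT veh and 7 lower in WT NR than in WT veh, against 55.4% and 51.5% of all genes, with 0 called. In *Atm-/-* NR 7 of 7 were above WT NR (52.8% of all genes), with a median log2 difference of 0.14. Without the 5 arrays set apart 3 were above and 4 below (50.5% of all genes above), with a median of -0.08. *Pdgfra* and *Cspg4* had the lower mean in *Atm-/-* NR with and without these arrays. The mean of the list relative to its average over all arrays ran from 0.08 to 0.66 in WT veh, -0.40 to 0.10 in WT NR, -0.24 to 0.13 in *Atm-/-* veh and -0.43 to 0.52 in *Atm-/-* NR (log2 units). Of 8 pericyte markers, *Anpep* (log2 difference -0.62, adjusted p = 0.0149) and *Vtn* (-0.31, adjusted p = 0.0379) were called lower with NR over both genotypes. In that comparison 10.8% of all probes and 13.4% of all genes by brightest probe were called. Without the 5 arrays set apart 0 of 8 were called (0% of all probes). For *Atm-/-* NR against *Atm-/-* veh, 6 of 8 had the lower mean (45.1% of all genes). The median log2 difference was -0.29, with 0 called. With the 5 arrays left out 7 of 8 were lower there (47.1% of all genes), with a median of -0.23. The pericyte list ran from -0.01 to 0.15 in WT veh, -0.10 to 0.01 in WT NR, -0.01 to 0.25 in *Atm-/-* veh and -0.17 to -0.01 in *Atm-/-* NR. The part of these cells in the 2 genes was not tested.

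Since *Pdgfra* and *Cspg4* varied most closely together from array to array, and *Tcf7l2* least like the others, the sequences just upstream of their start sites are shown (250 bases, RefSeq, GRCm38.p6, plus strand). Capitals mark ACAAT and ACAAAG or their reverse complements ATTGT and CTTTGT (both strands searched, neither motif within the other), core letters of sites bound by HMG-box factors such as SOX10 and TCF7L2. The *Pdgfra* window lies at chr5:75152001-75152250 and the *Cspg4* window at chr9:56864854-56865103. *Tcf7l2* has 2 start sites in the table, with windows at chr19:55741560-55741809 and chr19:55895071-55895320.
Pdgfra: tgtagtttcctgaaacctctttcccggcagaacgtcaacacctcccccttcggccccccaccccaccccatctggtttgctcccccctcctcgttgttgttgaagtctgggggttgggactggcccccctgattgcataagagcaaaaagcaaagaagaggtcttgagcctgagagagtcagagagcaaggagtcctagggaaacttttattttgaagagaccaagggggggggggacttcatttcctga
Cspg4: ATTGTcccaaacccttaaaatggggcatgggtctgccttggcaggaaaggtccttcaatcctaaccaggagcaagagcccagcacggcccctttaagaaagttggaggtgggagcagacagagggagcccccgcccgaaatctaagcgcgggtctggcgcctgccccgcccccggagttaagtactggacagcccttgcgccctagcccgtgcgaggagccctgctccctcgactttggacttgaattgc
Tcf7l2 start 1: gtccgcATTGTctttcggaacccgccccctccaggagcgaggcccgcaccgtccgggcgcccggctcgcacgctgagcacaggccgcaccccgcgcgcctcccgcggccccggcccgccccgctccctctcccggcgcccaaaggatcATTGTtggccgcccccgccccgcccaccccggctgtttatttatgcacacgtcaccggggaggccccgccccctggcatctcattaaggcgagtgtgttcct
Tcf7l2 start 2: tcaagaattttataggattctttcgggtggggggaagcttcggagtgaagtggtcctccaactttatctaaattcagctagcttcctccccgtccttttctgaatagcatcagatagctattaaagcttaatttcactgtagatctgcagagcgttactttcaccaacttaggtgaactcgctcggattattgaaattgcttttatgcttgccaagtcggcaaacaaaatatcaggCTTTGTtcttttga
No match was found in the *Pdgfra* window, 1 ATTGT in that of *Cspg4*, 2 ATTGT in the first and 1 CTTTGT in the second of *Tcf7l2*. Of 32841 windows of the same length, 27.7% held ACAAT or ATTGT, 16.5% ACAAAG or CTTTGT, and 38.8% either. The 2 *Tcf7l2* windows differ in composition, with 72.8% and 40.8% G and C. Windows were found for 6 of the 10 members, and those of *Olig2* and *Nkx2-2* hold 1 ATTGT or ACAAT each and that of *Sox8* none.

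Of the factors that act throughout the lineage, *Sox10* had the largest difference between genotypes, in the NR groups. It activates genes from the precursor stage to myelin. It read 12.43, 11.87, 11.44 and 12.45 in WT veh, 12.38, 12.20, 12.24 and 12.71 in WT NR, 12.06, 11.92, 11.92 and 11.83 in *Atm-/-* veh and 11.86, 12.08, 11.67 and 11.79 in *Atm-/-* NR. Every *Atm-/-* NR array was below every WT NR array, while the veh groups overlapped. The log2 difference between the NR groups was -0.53 (SE 0.19, adjusted p = 0.860, limma), and that between the veh groups was -0.11 (SE 0.19, adjusted p = 0.816). On the 11 other arrays these were -0.72 (SE 0.27, adjusted p = 0.857) and 0.02. The difference between both genotype differences, which equals that between the NR effects, was -0.41 (SE 0.27, adjusted p = 0.839). *Sox8*, a close relative with overlapping roles, ran from 9.11 to 9.998 in WT veh, 9.58 to 10.30 in WT NR, 9.35 to 9.71 in *Atm-/-* veh and 9.35 to 9.64 in *Atm-/-* NR. Its groups overlapped, and over both treatments *Atm-/-* had a log2 difference of -0.28 (SE 0.13, adjusted p = 0.376), and of -0.37 without the 5 arrays set apart (SE 0.18, adjusted p = 0.531). Its second probe, A_52_P269667, gave -0.26 (SE 0.20, adjusted p = 0.600).

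*Olig1* and *Olig2*, neighbouring genes of related helix-loop-helix factors, had wide ranges in WT veh. *Olig1* ran from 12.11 to 13.16 in WT veh, 12.40 to 13.22 in WT NR, 12.46 to 12.68 in *Atm-/-* veh and 12.24 to 12.63 in *Atm-/-* NR. *Olig2* ran from 8.99 to 10.60, 9.19 to 9.97, 9.09 to 10.12 and 9.36 to 9.58 in the same order. All groups overlapped for both genes. The largest difference was that of *Olig1* between *Atm-/-* NR and WT NR (log2 difference -0.38, 95% interval -0.82 to 0.06, limma adjusted p = 0.991), and it was -0.50 without the 5 arrays (95% interval -1.14 to 0.13, adjusted p = 0.906). For *Olig2* the 95% intervals of the 4 comparisons between groups reached from -0.86 to 0.73, and without the 5 arrays from -1.02 to 1.05. Differences of that size could not be told from the spread with 4 arrays a group.

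*Nkx2-2*, a homeobox gene that comes on in cells about to differentiate, had 2 probes that differed in sign. Its brightest probe ran from 9.16 to 9.68 in WT veh, 9.29 to 10.34 in WT NR, 9.08 to 9.67 in *Atm-/-* veh and 9.15 to 9.49 in *Atm-/-* NR. For *Atm-/-* NR against *Atm-/-* veh it gave a log2 difference of -0.12 (SE 0.21, limma adjusted p = 0.746), and -0.15 without the 5 arrays (SE 0.20, adjusted p = 0.730). Its second probe, A_55_P1985905, gave 0.46 (SE 0.23, adjusted p = 0.202). It ran from 7.88 to 9.01 in *Atm-/-* veh and 8.87 to 9.08 in *Atm-/-* NR. No direction is given for *Nkx2-2*.

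*Myrf*, the factor that turns on myelin genes, was near background. Its single probe exceeded background clearly on 3 of the 4 arrays of WT veh, 2 of those of WT NR, 3 of those of *Atm-/-* veh and 0 of those of *Atm-/-* NR. It therefore missed the requirement of detection on all arrays of a group and was not tested. The lowest counts of probes above background were also those of the *Atm-/-* NR arrays, and their part was not tested.

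The comparison of *Atm-/-* with WT mice asks what loss of *Atm* does to the lineage genes. Without NR, 8 of 9 members had the lower mean in *Atm-/-*, against 55.4% of all genes. The 2 members *Gpr17* and *Tcf7l2* did not overlap between the groups, both lower, against 4.84% of all genes. The median log2 difference of the members was -0.21, and that of all genes -0.03. Under NR, 9 of 9 members had the lower mean in *Atm-/-*, against 47.2% of all genes, with *Cspg4* and *Sox10* not overlapping, against 1.8%. The median was -0.35 for the members and 0.01 for all genes. On the 11 arrays not set apart, 6 of 9 and 8 of 9 members were lower (56.6% and 49.5% of all genes), with medians of -0.05 and -0.50. Over both treatments 9 of 9 were lower with and without these arrays (53.5% and 54.9% of all genes). As several members were correlated from array to array, these counts are not independent of each other. 

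The comparison of NR with veh asks whether the supplement shifts the lineage genes. In *Atm-/-* mice the members did not share a direction, with 5 higher and 4 lower and a median log2 difference of 0.00042. *Gpr17* and *Tcf7l2* did not overlap and were higher with NR, against 16% of all genes, and *Cspg4* did not overlap and was lower, against 10.3%. In WT mice 7 of 9 members had the higher mean with NR (48.5% of all genes), with a median of 0.22 and 0 members that did not overlap (4.58% of all genes). On those 11 arrays, 2 of 9 members were higher in *Atm-/-* mice (52.9% of all genes) and 7 of 9 in WT mice (46.3%). Over both genotypes, the log2 difference of NR against veh was 0.61 for *Gpr17* (SE 0.20, limma adjusted p = 0.0655) and 1.96 for *Tcf7l2* (SE 0.70, adjusted p = 0.0879). On the 11 arrays not set apart it was 0.71 for *Gpr17* (SE 0.14, adjusted p = 0.0909) and 0.10 for *Tcf7l2* (SE 0.08, adjusted p = 0.543). The comparisons of genotypes and of treatments share arrays, since each group enters both.

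**Figure D3:**
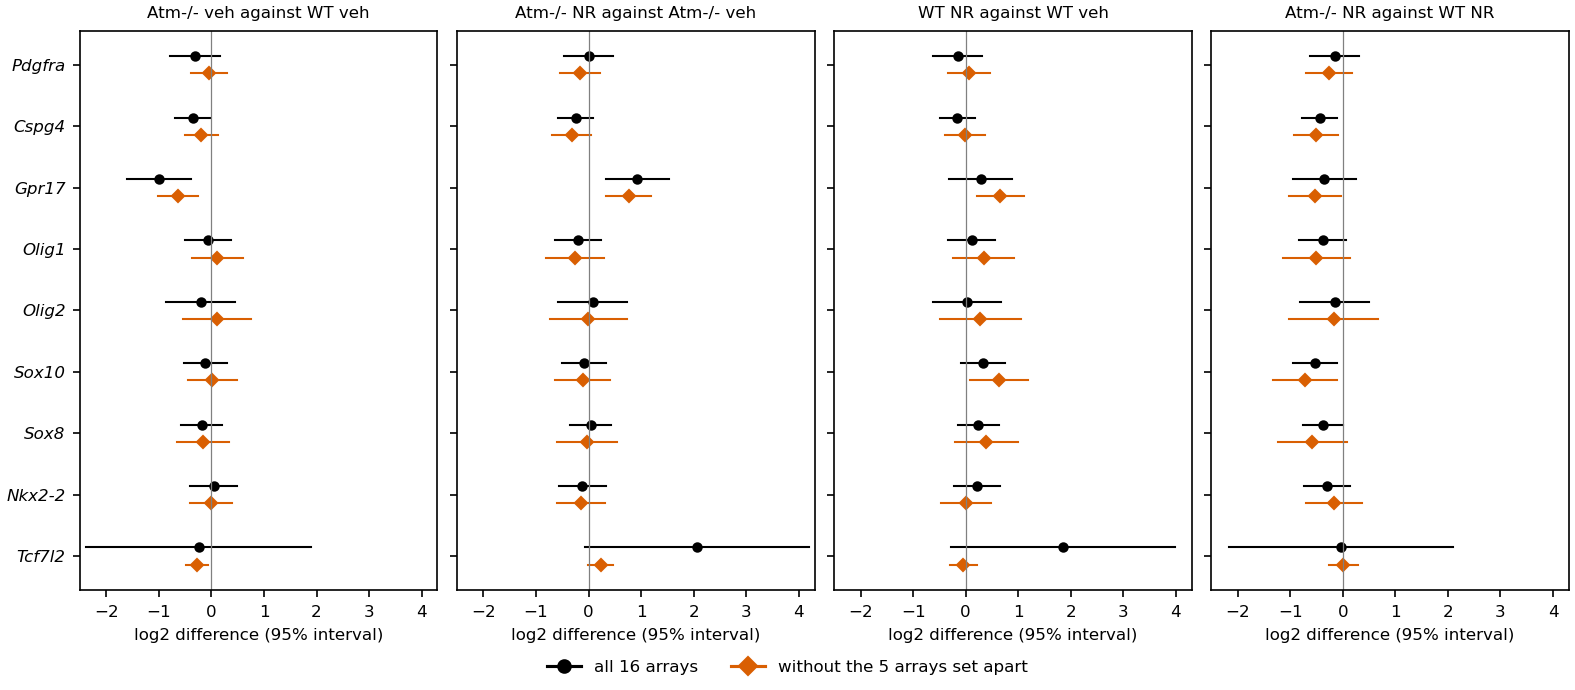
The log2 difference (x axis) of each measured member with its 95% interval from limma is plotted for 4 comparisons, with all 16 arrays (black) and without the 5 arrays set apart (orange). *Gpr17* lies below 0 for *Atm-/-* veh against WT veh and above 0 for *Atm-/-* NR against *Atm-/-* veh in both fits, and the wide intervals of *Tcf7l2* narrow without the 5 arrays.

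Among other genes of the lineage, none of those called was a precursor marker. By brightest probe, 11.5% of all genes were called for *Atm-/-* NR against *Atm-/-* veh and 13.4% for NR over both genotypes. The 14 other precursor markers measured had 0 calls in every comparison, which so few genes cannot tell from these shares. For *Atm-/-* veh against WT veh the extremes were *Sox5* (log2 difference 0.38, adjusted p = 0.539) and *Pcdh15* (-0.70, adjusted p = 0.336), and for *Atm-/-* NR against *Atm-/-* veh *Pcdh15* (0.75, adjusted p = 0.148) and *Cacng4* (-0.39, adjusted p = 0.377). Of 10 genes of newly formed oligodendrocytes, *Rras2* rose (0.29, adjusted p = 0.0299) and *Nfasc*, which encodes a neurofascin of the node and paranode, fell (-0.44, adjusted p = 0.0189) in *Atm-/-* NR against *Atm-/-* veh. A second probe of *Rras2* gave -0.24, and the other probes of *Nfasc* gave -0.39, -0.32 and 0.04. Neither gene was called without the 5 arrays (adjusted p = 0.160 for *Rras2* and 0.170 for *Nfasc*).

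Calls among regulators and receptors were also found for *Atm-/-* NR against *Atm-/-* veh, where 9.04% of all probes and 11.5% of all genes by brightest probe were called. Of 29 regulators, 3 rose and 2 fell. The basic helix-loop-helix gene *Tcf12* (log2 difference 0.58, adjusted p = 0.0201), the zinc finger gene *Zfp24* (0.43, adjusted p = 0.0183) and *Yy1* (0.31, adjusted p = 0.0438) rose. *Tcf3*, the partner of *Tcf12* in its family, fell (-0.47, adjusted p = 0.0165), as did *Tcf7l1* (-0.56, adjusted p = 0.0130), the paralog of *Tcf7l2* known as a repressor of Wnt targets. For *Tcf3* the other probe gave -0.41, while the other probes gave -0.02 for *Tcf12*, -0.21 for *Yy1*, and 0.17 and 0.02 for *Zfp24*. Of 23 ligands and receptors, *Igf1r*, the receptor of a growth factor that promotes myelination, fell by 0.77 on the log2 scale (SE 0.078, adjusted p = 0.00355). *Igf1r* read 10.58 ± 0.078 without NR and 9.82 ± 0.089 with it (SD, n = 4), and its other probe fell by 0.84 (adjusted p = 0.0221). *Bmpr1b*, a receptor of the BMP signal that holds precursors back, rose by 0.42 (SE 0.095, adjusted p = 0.0198). Without the 5 arrays none of these was called, with log2 differences of -0.71 for *Igf1r* (adjusted p = 0.0750) and -0.65 for *Tcf7l1* (adjusted p = 0.0986), and with 0% of all probes called. In the test of any difference among the groups, *Zfp488*, a repressor that works with OLIG2, was also called (adjusted p = 0.0470, and 0.191 without the 5 arrays), at 13.60 ± 0.044 in WT veh and 14.35 ± 0.28 in *Atm-/-* NR.

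For *Atm-/-* veh against WT veh, 0 genes of the 5 other lineage lists were called (0.0537% of all probes were). The largest differences there were those of the regulators *St18* (log2 difference 0.67, limma adjusted p = 0.470) and *Hes5*, an effector of Notch signalling (-1.01, adjusted p = 0.443). Among ligands and receptors they were those of *Erbb3*, a neuregulin receptor that was well above background on 10 of 16 arrays (1.18, adjusted p = 0.238), and *Pdgfc*, a ligand of the PDGF receptor alpha (-0.60, adjusted p = 0.498). For mature myelin they were those of *Ermn* (0.27, adjusted p = 0.728) and *Opalin* (-0.49, adjusted p = 0.497). In *Atm-/-* NR against *Atm-/-* veh both had the opposite sign, at -0.49 for *Ermn* (adjusted p = 0.350) and 0.40 for *Opalin* (adjusted p = 0.444), and these comparisons share the *Atm-/-* veh arrays.

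The genes of mature myelin, the product of the lineage, were mostly lower in *Atm-/-* than in WT mice under NR and higher with NR in WT mice, without a call. Of 19 measured, 13 had the lower mean in *Atm-/-* without NR (55.4% of all genes; median log2 difference -0.07), and 10 without the 5 arrays (median -0.02). Under NR 18 had the lower mean (47.2% of all genes; median -0.35), and 17 without the 5 arrays (median -0.39). Over both treatments 19 did (53.5% of all genes), with a median of -0.24 against -0.01 for all genes, and 17 without the 5 arrays. In WT NR 19 were above WT veh (48.5% of all genes; median 0.28 against -0.01), and 18 without the 5 arrays. Of the 19, 0 were called for *Atm-/-* over both treatments and 0 for WT NR against WT veh, with 3 and 5 at an unadjusted p under 0.05 (13.1% and 8.84% of all genes, limma). Over both genotypes *Qdpr*, which encodes an enzyme that recycles tetrahydrobiopterin, was higher with NR (log2 difference 0.33, adjusted p = 0.0334, and 0.212 without the 5 arrays), and its 2 other probes gave 0.16 and 0.13. In *Atm-/-* mice 10 of 19 were higher with NR and 9 lower (median 0.02). The difference between both NR effects called 0 of 19, with 0 at an unadjusted p under 0.05. The mean of the list relative to its average over all arrays ran from -0.42 to 0.24 in WT veh and 0.06 to 0.59 in WT NR, which overlapped. It ran from -0.15 to -0.07 in *Atm-/-* veh and -0.28 to -0.03 in *Atm-/-* NR (log2 units). Whether the 19 genes varied together was not tested, so these counts cannot be taken as independent of each other.

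Over all 16 arrays, every pair of members without *Tcf7l2* or *Nkx2-2* had a correlation above 0 within groups, though most pairs did not pass the test. Deviations from the group means were correlated over the 16 arrays for all 36 pairs of the 9 members, with a two-sided permutation test of 100000 resamples within groups. The median Pearson r was 0.47, and 32 pairs were above 0. *Pdgfra* and *Cspg4* gave the highest value (r = 0.92, rho = 0.88, permutation p = 1e-05, the smallest the resamples can give, adjusted p = 0.00036). With the 2 arrays farthest from the median of *Pdgfra* left out, r was 0.88. *Olig1* and *Sox10* followed with r = 0.87 (adjusted permutation p = 0.0381), and *Cspg4* with *Olig1* (r = 0.84), *Cspg4* with *Olig2* (r = 0.81) and *Olig1* with *Olig2* (r = 0.80) had the same adjusted p. These 5 pairs were under 0.05 by Pearson's r, and 1 of them, *Pdgfra* with *Cspg4*, also by Spearman's rho. No pair of *Gpr17* or *Sox8* was. Over the 11 arrays not set apart, the median r was 0.55, 29 pairs were above 0, and *Pdgfra* with *Cspg4* gave 0.86. *Nkx2-2*, whose r with the 7 members other than *Tcf7l2* was -0.13 to 0.39 over 16 arrays, gave 0.48 to 0.65 with *Olig1*, *Olig2*, *Sox10*, *Gpr17* and *Sox8* over these 11. 

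**Figure D4:**
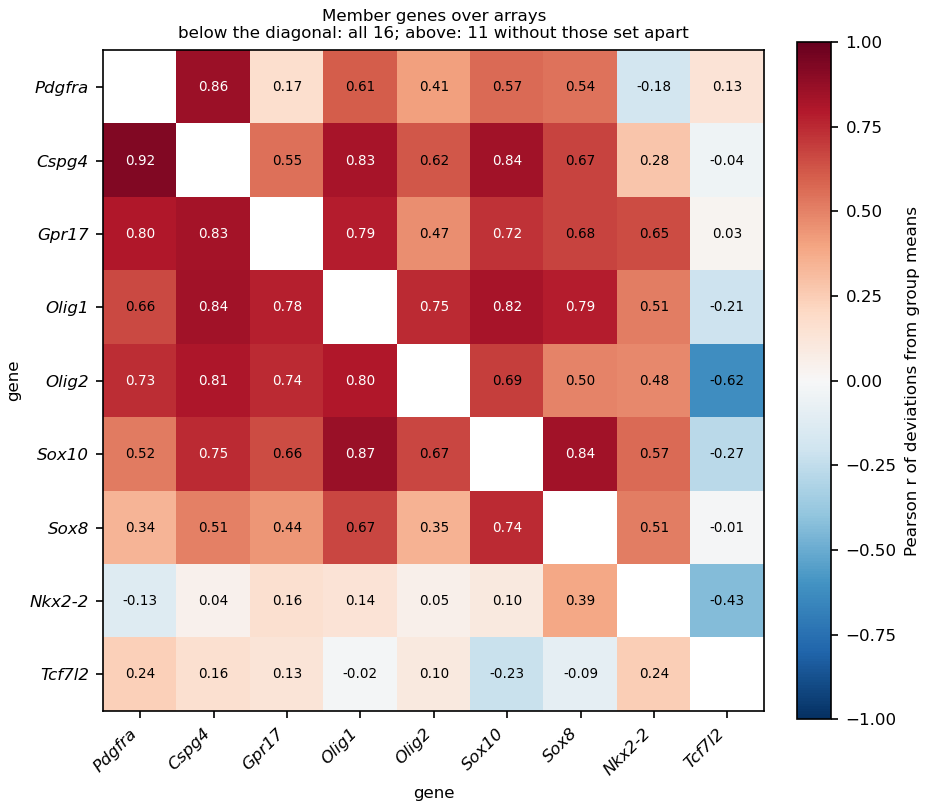
Each square gives Pearson's r (colour and number) between the deviations of 2 members from their group means, over all 16 arrays below the diagonal and over the 11 arrays not set apart above it. All values among *Pdgfra*, *Cspg4*, *Gpr17*, *Olig1*, *Olig2*, *Sox10* and *Sox8* are above 0 on both sides of the diagonal, while those of *Tcf7l2* run on both sides of 0.

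The array WT veh 4 stood high for several members. It was the highest of all 16 for *Pdgfra*, *Cspg4*, *Olig2* and *Gpr17*, 4 of 9 members, and it was the highest for 12.6% of all genes. Within WT veh it was the highest for *Olig1* and *Sox10* too. It is also the array with the highest signal of the forebrain genes. Relative to the average over all arrays, its mean was 2.80 for the choroid plexus and ependyma list and 0.59 for the microglia list (log2 units). These were the highest of all arrays, while -0.53 for the Purkinje cell list and -0.49 for the granule cell list were the lowest. The part of any of these lists in the member values was not tested. The SD within groups was 0.22 to 0.46 for the members other than *Tcf7l2*, for which it was 1.52, beyond 99.3% of genes, against a median of 0.18 over all genes. The genes most like the mean of the standardized members, by Pearson's r of the deviations from group means over the 16 arrays, were *Caskin2* (r = 0.94), *Barx2* (r = 0.93), *Gm41257* (r = 0.93), *Cdk18* (r = 0.93) and *Kcnu1* (r = 0.93), then *Khdrbs3*, *Scarb1* and *Prps2* (r = 0.92 each). Among the genes of the other lineage and cell type lists, *Slc1a2*, an astrocyte glutamate transporter, was the nearest (r = 0.91), ahead of the precursor gene *Susd5* (r = 0.83).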

How the data were processed

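RNA of cerebellar cortex was measured on 16 one-colour Agilent arrays, 4 per group, and spots were read with Feature Extraction 12.0.3.1, per the file headers. The intensity values deposited by the authors are background-subtracted processed signals of each spot. The second table deposited holds a z-score per spot, and the authors made each score with DIANE 6.0 from quantile normalized log signals. From the intensities, control spots (3671 of 62976) were removed. A probe went on if the scanner software placed it well above background on every array of 1 group or more (38041 of 56605). The spots of these probes were log2 transformed and quantile normalized. Outlier spots were then removed and the other spots of a probe averaged. The 788 probes left without a value on some array were dropped, and 37253 (65.8%) were kept. The number of arrays limits the precision. Groups were compared with limma 3.58.1 in R 4.3.3 over all 16 arrays, with a mean per group, 12 residual degrees of freedom and Benjamini-Hochberg adjustment over all probes kept. Of several kept probes of a gene, the brightest stands for it. Of all probes, 58.3% could be named through their accession, from RefSeq tables, with positions of build mm9 in the array annotation. Promoters came from RefSeq (GRCm38.p6).

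The text names all members with every probe, *Atm*, the genes of each list that were called (at most 4 by the rule, while all 5 regulators called in 1 comparison and *Zfp488* are given), otherwise the largest rise and fall in 2 comparisons, and the 8 genes most like the members. Genes of other brain regions, those most like *Tcf7l2*, and the second and later probes given for called genes were added after values were seen, and 1 forebrain gene is not reported here. Not every list extreme is given. The members and lists were chosen with earlier results of these data known. Nothing in the labels says how the 4 mice of a group were housed or bred, and p-values measure the spread between them. Alternatives were another scaling, background correction, probe filter and summary, the z-scores, the study's t-test, a replicate block, covariates, and leaving out arrays. The fit was tested on simulated data.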

Additional observations from a re-analysis of the deposited data

How the results depend on the processing

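With all alternatives counted, 434 of the results for single members kept their direction and side of the threshold, 27 changed sign and 7 passed the threshold, and with 1 array left out 544, 29 and 3 did. For *Atm-/-* NR against *Atm-/-* veh, 1 member (*Gpr17*) was called with 75th percentile scaling, normexp, the deposited z-scores, probes above background on all arrays, only the arrays compared, the methods' t-test or genes of other regions as covariates (adjusted p = 0.0471, limma), and 0 to 1 with 1 array left out. For NR over both genotypes 1 (*Tcf7l2*) was called with the replicate block, without arrays lacking Y-linked signal or with that signal as a covariate. Leaving out the arrays lacking Y-linked signal keeps only WT NR 2 and WT NR 3 in WT NR, and both are set apart. On the arrays not set apart, the log2 difference of *Tcf7l2* for NR over both genotypes was 0.096 (limma adjusted p = 0.543). With 1 array left out, 0 to 1 was called (*Tcf7l2* without WT NR 1, *Gpr17* without WT veh 4). For any difference among the groups 1 (*Gpr17*) was called with 75th percentile scaling, normexp or probes above background on all arrays, and 0 to 2 with 1 array left out (*Cspg4* and *Gpr17* without WT veh 3).

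The sign of *Pdgfra* for *Atm-/-* NR against *Atm-/-* veh turned to -0.019 (75th percentile), -0.018 (normexp), -0.0025 (z-scores, and the methods' t-test), -0.011 (no filter), -0.16 (without the 5 arrays set apart) and -0.16 (genes of other regions as covariates). *Nkx2-2* for *Atm-/-* veh against WT veh gave -0.063 (normexp), -0.052 (mean of probes), -0.012 (without the 5 arrays) and -0.0051 (covariates), and for *Atm-/-* NR against *Atm-/-* veh 0.17 (mean of probes). *Tcf7l2* for *Atm-/-* veh against WT veh gave 0.31 with Y-linked signal as a covariate. Without the 5 arrays, *Olig1* (0.11), *Olig2* (0.11) and *Sox10* (0.020) turned for *Atm-/-* veh against WT veh, *Olig2* (-0.0044) and *Sox8* (-0.029) for *Atm-/-* NR against *Atm-/-* veh, *Pdgfra* (0.070) and *Tcf7l2* (-0.043) for WT NR against WT veh, and *Tcf7l2* (0.0064) for the NR groups. With the covariates, *Olig1* (0.032) and *Olig2* (0.0054) turned for the veh groups, *Olig2* (-0.077) and *Sox8* (-0.0077) for *Atm-/-* NR against *Atm-/-* veh, and *Tcf7l2* for WT NR against WT veh (-0.13) and for the NR groups (0.26). The cause was not tested.

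With 1 array left out, the log2 differences that turned ranged, for the veh groups, from -0.25 to 0.11 (*Olig1*), -0.44 to 0.11 (*Olig2*), -0.32 to 0.020 (*Sox10*) and -0.050 to 0.17 (*Nkx2-2*). They ranged from -0.10 to 0.098 (*Pdgfra*), -0.031 to 0.31 (*Olig2*) and -0.00024 to 0.13 (*Sox8*) for *Atm-/-* NR against *Atm-/-* veh. For WT NR against WT veh they ranged from -0.29 to 0.11 (*Pdgfra*), -0.28 to 0.0082 (*Cspg4*), -0.064 to 0.29 (*Olig1*), -0.18 to 0.35 (*Olig2*) and -0.012 to 0.34 (*Nkx2-2*), and for the NR groups from -0.69 to 0.59 (*Tcf7l2*).

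Replicate numbers did not pair the arrays: deviations of arrays with the same number had mean correlations of -0.054 to 0.068, and 2 of 16 arrays were most like those of their own number. The replicate block changed no member count but that of NR over both genotypes (1). Leaving out arrays with genes of other regions and the covariates were chosen after seeing the data. No array would remain in WT NR without both these arrays and those lacking Y-linked signal.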

Other observations

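Apart from the pericyte markers above, 1 marker of Purkinje cells and 1 of microglia were called among the other cell types in cerebellar cortex. *Car8*, which encodes a Purkinje cell protein that binds the IP3 receptor, was higher in *Atm-/-* NR than in *Atm-/-* veh (log2 difference 1.10, limma adjusted p = 0.0417) and with NR over both genotypes (1.26, adjusted p = 0.00656), as 1 of 6 Purkinje cell markers. Of all probes, 9.04% and 10.8% were called in these comparisons, and of all genes by brightest probe 11.5% and 13.4%. *Sall1*, a transcription factor of microglia, was higher in *Atm-/-* NR than in *Atm-/-* veh (0.97, adjusted p = 0.0426) and with NR over both genotypes (0.64, adjusted p = 0.0473), as 1 of 8 microglia markers. Neither list rose as a whole in *Atm-/-* NR against *Atm-/-* veh. Of the Purkinje cell markers 2 were higher and 4 lower, and of the microglia markers 4 were higher and 4 lower (54.9% of all genes higher). The largest fall among microglia markers was that of *C1qa* (-0.67, limma adjusted p = 0.0803). Without the 5 arrays set apart, 0 Purkinje cell and 0 microglia markers were called in both comparisons (0% of all probes, limma). The 10 astrocyte and Bergmann glia markers, 6 endothelial, 6 granule cell, 4 inhibitory interneuron, 3 choroid plexus and ependyma markers and the 1 brainstem marker measured had 0 calls in these comparisons.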
